A study of Mus musculus with 31 samples.

Results

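The 44 genes described here were chosen by symbol from a list of imprinted genes, whose expression depends on DNA methylation. All 44 were found among the 55492 rows of the deposited count table. Of these, 36 had enough counts to be tested and 8 did not. Bulk RNA came from the long-term haematopoietic stem cells (LT-HSCs) of mouse bone marrow. The sort took CD150-positive, CD48-negative cells among those that were lineage-negative, Sca1-positive and Kit-positive. Wild-type mice had received mutant marrow together with a 10-fold excess of wild-type marrow. Treatment began 4 weeks after transplantation, once a myeloproliferative neoplasm (MPN) had developed, and lasted 8 weeks.

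The genotype called VF carries SclCre, FF1 and GFP, where FF1 is the transgene for the human JAK2-V617F kinase, the common driver mutation of MPN. The genotype called VFDM carries the same alleles and in addition lacks Dnmt3a, which encodes a de novo methyltransferase of DNA. SclCre acts in cells that use the Scl promoter, so the deletion belongs to the transplanted haematopoietic cells. Mice of each genotype were given vehicle, pegylated interferon-alpha (IFN, 25 µg/kg weekly), 5-azacytidine (AZA, 2 mg/kg daily) or both drugs at those doses (COMBO). 5-Azacytidine is a nucleoside analogue that traps DNA methyltransferases. The 8 groups held 4 libraries each, except VFDM COMBO with 3 (numbered 2, 3 and 4). Whether each library stands for its own animal is not in the labels, so the p-values below reflect spread between libraries, which may be technical. Every group shares JAK2-V617F and the transplanted state, and no library of unmutated LT-HSCs was analysed here. The gate in the labels names no marker of donor origin.

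Imprinted genes are expressed mainly or only from the allele of one parent. Methylation laid down in the germ line at imprinting control regions marks that allele, DNMT1 copies the mark at each cell division, and the zinc finger protein ZFP57 protects it in the early embryo. A control region often acts through a long noncoding RNA, such as Kcnq1ot1 or Airn, that silences neighbouring genes on the same chromosome. In the haematopoietic system several imprinted genes are known for high expression in LT-HSCs, among them Cdkn1c, which restrains the cell cycle, and the H19-Igf2 and Dlk1-Meg3 domains. Bulk counts do not tell the 2 alleles apart, so every value below is the summed RNA of both alleles. Whether a listed gene is imprinted in these LT-HSCs cannot be seen from them, and some genes are imprinted only in certain tissues.

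Total counts ran from 17782394 to 73910928 per library, and 17087 to 28851 rows had a count. A count of 3, the limit that a count of 0 allows, corresponds to between 0.04 and 0.174 CPM (counts scaled by library size), depending on the library and for counting error only. Dnmt3a was at 104 to 297 CPM in VF libraries and at 23 to 162 CPM in VFDM libraries. The library labelled VFDM IFN 3 went against its label, with Dnmt3a at 162 CPM against 102 to 111 CPM in the other VFDM IFN libraries and the CreERT2 transgene at 113 CPM against 212 to 244 CPM. The summed level of 14 markers of LT-HSCs was 1170 to 2620 CPM, but several of them were nearly absent in COMBO libraries, as given with the cell type markers. VF vehicle libraries 2 and 4 had scaling factors of 0.753 and 0.719, against 0.926 to 1.07 elsewhere, and 8 libraries had fewer than 20000 rows with a count, 3 of them in VF COMBO, 2 each in VF AZA and VFDM AZA, and 1 (library 3) in VFDM COMBO. What the calls became without these libraries is given with the counts below.

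Promoter sequences are shown first for 4 members that passed the test with the combination, because their levels carry results below and CpG is the site of DNA methylation. They are RefSeq windows on GRCm38.p6, read 5′ to 3′ on the gene's strand, covering 250 bases before the annotated start, with each CpG in capitals. For Ppp1r9a only the first 190 bases are printed, which end before the gene's start in GENCODE. Kcnq1ot1 lies on the minus strand at chr7:143296548-143296797 with 5 CpG, Igf2r on the minus strand at chr17:12769707-12769956 with 27, Slc22a3 on the minus strand at chr17:12507705-12507954 with 5, and Ppp1r9a on the plus strand at chr6:4902725-4902914 with 3. The whole 250-base window of Ppp1r9a holds 8 CpG, and a second RefSeq window of the gene, 4903061 to 4903310, holds 35, so the printed stretch does not stand for the CpG content of this promoter.
Kcnq1ot1: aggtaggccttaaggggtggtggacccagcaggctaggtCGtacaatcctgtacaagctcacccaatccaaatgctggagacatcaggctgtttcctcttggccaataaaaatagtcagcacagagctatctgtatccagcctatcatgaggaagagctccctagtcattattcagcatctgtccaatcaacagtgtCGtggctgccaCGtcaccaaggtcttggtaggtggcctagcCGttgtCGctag
Igf2r: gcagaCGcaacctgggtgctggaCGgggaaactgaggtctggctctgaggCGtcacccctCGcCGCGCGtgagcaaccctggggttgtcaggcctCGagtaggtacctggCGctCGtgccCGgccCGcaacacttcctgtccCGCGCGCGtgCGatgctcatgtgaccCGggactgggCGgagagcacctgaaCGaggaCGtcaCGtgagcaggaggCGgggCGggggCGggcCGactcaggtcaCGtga
Slc22a3: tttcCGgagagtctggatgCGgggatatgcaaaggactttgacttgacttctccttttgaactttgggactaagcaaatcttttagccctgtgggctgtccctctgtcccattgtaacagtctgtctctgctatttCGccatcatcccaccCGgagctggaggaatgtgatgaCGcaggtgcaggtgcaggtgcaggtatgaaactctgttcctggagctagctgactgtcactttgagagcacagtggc
Ppp1r9a: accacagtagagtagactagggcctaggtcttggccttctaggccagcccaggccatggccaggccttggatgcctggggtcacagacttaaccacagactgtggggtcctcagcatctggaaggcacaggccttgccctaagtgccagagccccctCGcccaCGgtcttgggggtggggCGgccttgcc
Of the 44 members, 36 had at least 1 such window of 250 bases, 53 windows in all. At least 10 CpG stood in 58.5% of these windows, against 37.8% of the 32851 windows of all genes, with a median of 10 against 6. The hexamer TGCCGC, the core that ZFP57 reads in methylated DNA, was searched on both strands and was found in 15.1% of the members' windows and 8.68% of all windows. None of the 4 windows printed above holds it. Methylation was not measured in these libraries, and these counts describe letters only.

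Imprinted genes in these LT-HSCs ranged from abundant to undetected. The mean over 31 libraries was at least 10 CPM for 16 members, between 1 and 10 CPM for 6 and under 1 CPM for 22. Kcnq1ot1, the noncoding RNA that silences the Cdkn1c domain from the paternal chromosome, had the highest mean with 1020 CPM, but its annotated exon spans 93.1 kb. Per kilobase of exon, the organic cation transporter gene Slc22a3 (27.7 CPM per kb) and Gnas, which encodes the stimulatory G protein alpha subunit (27.3), led, followed by Peg13, a noncoding RNA, with 15.3, and Grb10, an adaptor that dampens insulin signalling, with 11.7. Kcnq1ot1 was at 11 CPM per kb and Ube3a, a ubiquitin ligase gene, also at 11.

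Members of the H19-Igf2 and Dlk1-Meg3 domains were near the limit of detection in these LT-HSCs. H19, a noncoding RNA, had counts in 9 of 31 libraries, and Igf2, a fetal growth factor, in 18, with highest levels of 4.45 and 2.11 CPM. The Dlk1-Meg3 domain was as low: Meg3 reached 2.85 CPM (VF IFN library 4), Rian 1.71 CPM in the same library and Dlk1, which encodes a transmembrane ligand-like protein, 1.08 CPM. Zim1 had no count in any library, and 3 counts correspond to 0.04 to 0.174 CPM. The other untested members reached 1.03 CPM for Mirg (VF IFN library 1), 0.69 CPM for Snurf, 0.0788 CPM for Ascl2, 0.0315 CPM for Usp29, 0.0252 CPM for Magel2, 0.0198 CPM for Nap1l5 and 0.0133 CPM for Dcn. The last 3 rest on 1 count each.

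**Figure D1:**
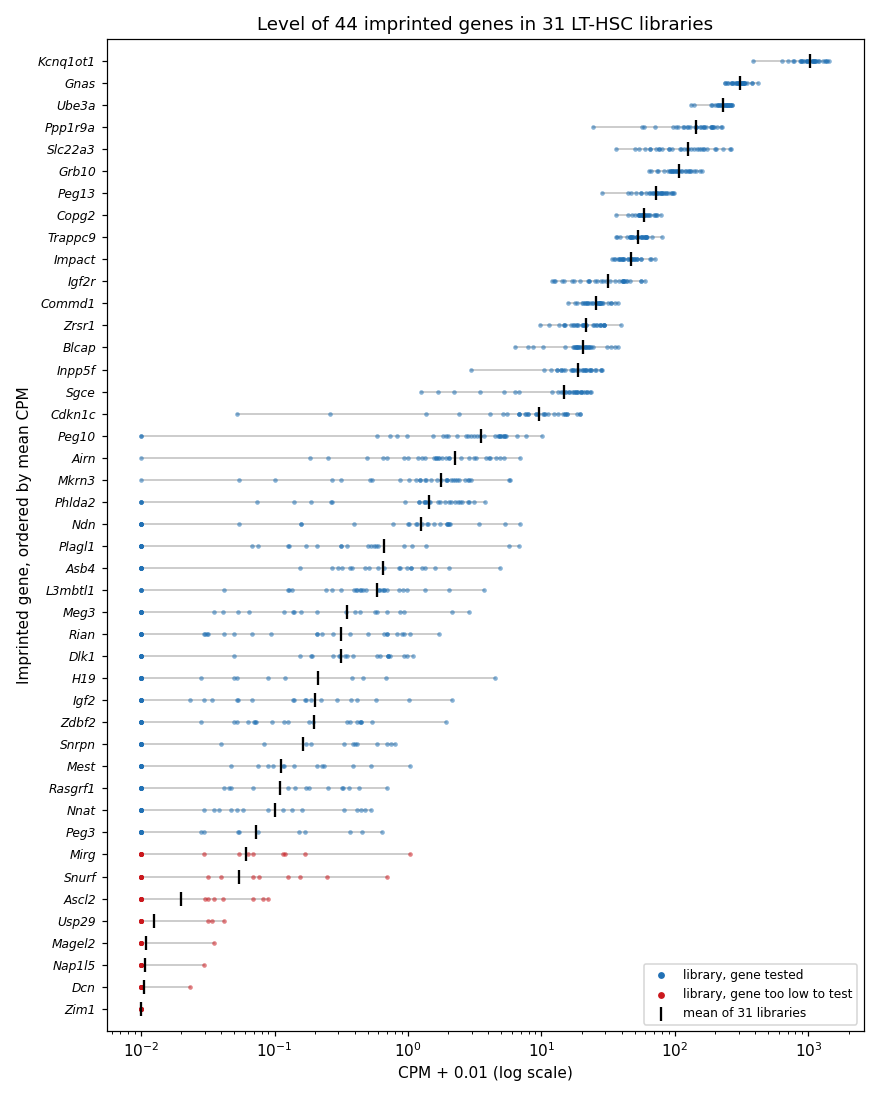
Level of the 44 imprinted genes, 1 gene per line, ordered by the mean over 31 libraries. The x axis is CPM + 0.01 on a log scale, points are libraries (blue for tested genes, red for genes too low to test) and black bars are means; 16 genes lie at 10 CPM or above, and 22 have means under 1 CPM.

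The counting did not settle which strand or which of several overlapping genes a read belongs to, as far as the sources used here state. This touches Snurf, all of whose exon bases lie within other genes' exons, Igf2 (64.5% of exon bases shared), Snrpn (34.1%), Cdkn1c (30.7%, with an antisense gene), Ube3a (27.3%, with Snhg14 and other antisense genes), Mest and Copg2 (23.1% and 17.8%, largely with each other) and Gnas (22%, including Nespas). Kcnq1ot1 shares 1.2% of its exon bases, and Kcnq1, the gene it runs against, did not exceed 0.0579 CPM in any library. Peg13 lies within an intron of Trappc9 on the same strand, so unspliced Trappc9 RNA would be counted as Peg13.

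Calls among imprinted genes, like those among all rows, came mainly with the combination of interferon and 5-azacytidine. Of the 36 tested members, 12 passed edgeR's quasi-likelihood test (Benjamini-Hochberg adjusted p under 0.05 over all 22172 tested rows) in at least 1 of 14 comparisons, and 24 passed in none. Members passed in 5 of the 14 comparisons. In VFDM mice the combination changed 9 of 36 members (25.0%), with Slc22a3 higher and Cdkn1c, Peg13, Sgce, Ndn, Grb10, Ppp1r9a, Asb4 and Inpp5f lower, while 16.0% of all tested rows passed there, 5.52% higher and 10.5% lower. DESeq2 called 9 members as well, a count given here without that of all rows. In VF mice the combination changed 6 of 36 (16.7%), with Ube3a, Kcnq1ot1 and Slc22a3 higher and Igf2r, Ndn and Ppp1r9a lower. There 8.29% of all rows passed (4.16% higher and 4.13% lower). DESeq2 called 7 members and 2972 of all rows in VF.

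The share of members that passed stood above the share of all rows in both genotypes, but the 2 shares were not tested against each other. Without VF vehicle libraries 1 and 4 the VF count was 2, and 358 of all rows passed, against 1838 in the main fit. Without the libraries that had fewer than 20000 rows with a count, which leaves 1 VF COMBO and 2 VFDM COMBO libraries, 0 members passed in VF and 12 in VFDM. The adjusted p in VF COMBO was then 0.0903 for Ndn, 0.175 for Ppp1r9a, 0.321 for Igf2r, 0.428 for Slc22a3, 0.587 for Kcnq1ot1 and 0.61 for Ube3a, and that of Kcnq1ot1 in VF 5-azacytidine 0.422. The 9 members called in VFDM COMBO kept their calls, with Cdkn1c 16.2-fold lower. Calls among all rows in VFDM rose from 3551 to 6062 at the same time. With only the 2 compared groups in the fit, 0 members passed in VF, where 117 of all rows did, and 10 members in VFDM. For VFDM the count of all rows in that fit is not given here. The median log2 fold change with the combination was -0.79 for tested members and -0.08 for all rows in VFDM, and -0.63 and -0.11 in VF. With members that had no count in COMBO libraries set at their floor, the members' medians were -0.76 and -0.42. Among the 22 members with a mean of at least 1 CPM the medians were -0.65 in VFDM and -0.17 in VF. By sign alone, 16 of these 22 were lower with the combination in VFDM and 14 in VF. The same count and median were not made for all rows of that level. The median of all rows was itself below 0 in both genotypes, so these counts have no background beside them.

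With a single drug, 1 member passed in 1 of 4 comparisons. Against vehicle of the same genotype, edgeR called no member for interferon in VF (2.43% of all rows passed) or in VFDM (0.965%). At an unadjusted edgeR p under 0.05 were 4 and 3 members, and 2746 and 1360 of all 22172 rows. DESeq2 called no member in either, and 959 and 328 of all rows. The count for VFDM was also 0 without the library labelled VFDM IFN 3. With only the compared groups in the fit, edgeR called 1 member for interferon in each genotype. These were Cdkn1c in VF (adjusted p = 0.0306) and Ppp1r9a in VFDM (0.0441), both lower. In VFDM 1092 of all rows passed in that fit. 5-Azacytidine changed 1 member in VF, Kcnq1ot1, where 1.20% of rows passed and DESeq2 called 2 members and 824 of all rows. It changed none in VFDM, where 0.925% of rows passed. There 5 members and 2114 of all rows had an unadjusted p under 0.05, and DESeq2 called no member and 423 rows.

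No tested imprinted gene passed for Dnmt3a deletion alone. The comparison of VFDM with VF vehicle called 0 members by edgeR (0.956% of all rows passed). At an unadjusted p under 0.05 were 5 members and 2529 of all rows, and DESeq2 called 1 member and 629 rows. The same comparison gave 0 members with interferon (0.00902% of rows), with 1 member and 265 rows at an unadjusted p under 0.05. DESeq2 called 0 members and 10 rows there. With 5-azacytidine the comparison gave 0 members (0.740% of rows), with 2 members and 2423 rows at an unadjusted p under 0.05. DESeq2 called 1 member and 441 rows there. Averaged over the 4 treatments the comparison gave 0 members, where 2.37% of rows passed. There 9 members and 3254 rows had an unadjusted p under 0.05, and DESeq2 called 0 members and 881 rows. With the combination, 1 member was lower in VFDM than in VF, Ppp1r9a, where 5.11% of rows passed. DESeq2 called 4 members and 2085 rows there. Several of the 14 comparisons use the same vehicle libraries and so depend on each other.

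**Figure D2:**
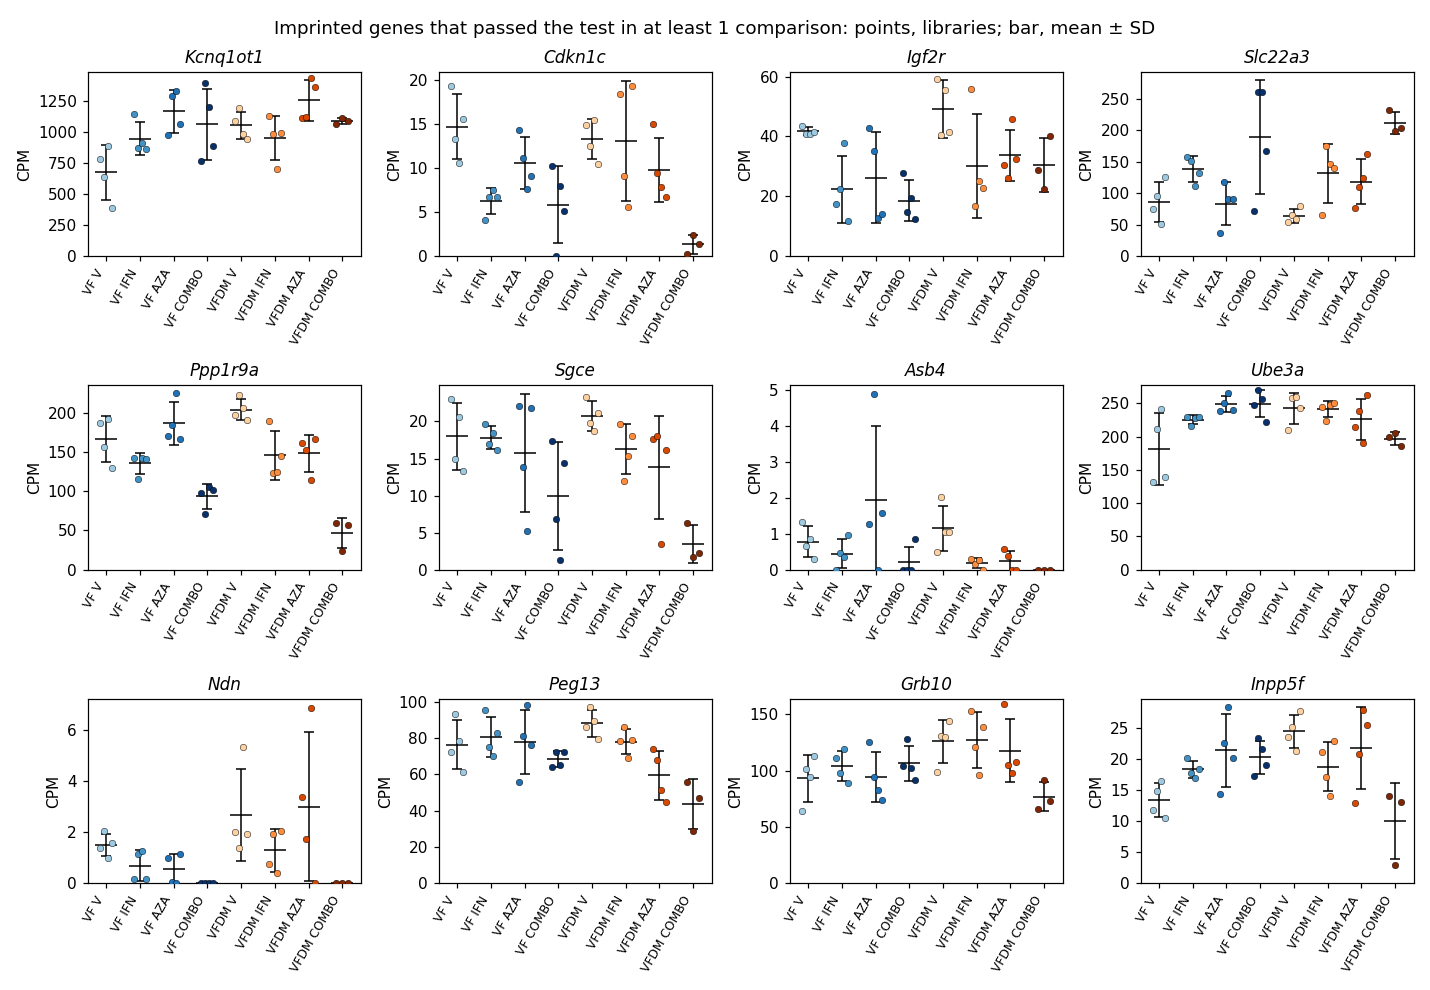
CPM of the 12 imprinted genes that passed the test in at least 1 comparison, 1 panel per gene, with the 8 groups on the x axis. Points are libraries, and bars are mean ± SD (n = 4, and 3 for VFDM COMBO); Ppp1r9a, Sgce, Cdkn1c and Ndn are lowest in VFDM COMBO or, for Ndn, at 0 in both COMBO groups.

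Cdkn1c fell with the combination in VFDM, and Ndn in both genotypes. Cdkn1c encodes p57, a cyclin-dependent kinase inhibitor known to keep LT-HSCs out of the cell cycle, and lies on chromosome 7 (143458339 to 143461050, minus strand, mm10). In VFDM vehicle libraries 1 to 4 it was at 14.9, 12.5, 15.5 and 10.5 CPM, and in VFDM COMBO libraries 2 to 4 at 0.252, 2.42 and 1.35 CPM. All 3 COMBO libraries lay below all 4 vehicle libraries. Mean Cdkn1c was 13.4 ± 2.29 CPM (SD, n = 4) with vehicle and 1.34 ± 1.08 CPM (SD, n = 3) with the combination, 10.1-fold lower in the edgeR fit (log2 fold change -3.34 ± 0.78 SE, adjusted p = 0.00254). Without COMBO library 3, the highest of the 3, it was 16.2-fold lower (-4.02, adjusted p = 0.00336).

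In VF mice Cdkn1c was at 19.4, 13.3, 10.6 and 15.6 CPM with vehicle and at 10.3, 0.0422, 7.97 and 5.13 CPM with the combination. The 2 groups did not overlap, but the difference did not pass the test (log2 fold change -1.33 ± 0.63, edgeR adjusted p = 0.19). With interferon alone the VF libraries were at 4.08, 6.75, 7.51 and 6.74 CPM, also below every vehicle library, without passing the test (log2 fold change -1.23, adjusted p = 0.443). When only these 2 groups were fitted the same difference was -1.21 with an adjusted p of 0.0306. The VFDM interferon libraries, at 18.4, 9.12, 5.54 and 19.4 CPM, spanned the vehicle range, the 5.54 CPM being in the library that went against its label. Whether the change with the combination differed between genotypes rested on 1 library. The difference of log2 fold changes was -2.01 ± 0.95 (edgeR adjusted p = 0.232), and -2.43 ± 0.69 (0.0406) without VF COMBO library 2, whose Cdkn1c was 1 count. The level in VFDM COMBO against VF COMBO did not pass either (-2.15 ± 0.74, adjusted p = 0.0838). It passed with DESeq2 (-2.10, 0.0244), without the libraries under 20000 rows (-2.63, 0.0195) and without VF COMBO library 2 (-2.54, 0.00424).

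Ndn encodes necdin, a growth suppressor of the MAGE family, transcribed from the paternal allele of the Snrpn domain (chromosome 7, 62346569 to 62350262, plus strand). It was low with vehicle, at 1.38, 2.03, 1 and 1.56 CPM in VF and at 1.99, 1.39, 5.34 and 1.94 CPM in VFDM. All 7 COMBO libraries, 4 of VF and 3 of VFDM, had no count. VF COMBO libraries 1, 2 and 3 and VFDM COMBO library 3 were also low in rows with a count, at 18757, 19478, 17087 and 18450. VF COMBO library 4 had 23834 such rows, and VFDM COMBO libraries 2 and 4 had 21204 and 21262. Ndn was set against a floor of 3 counts per library, which covers counting error only. It was then at least 12.2-fold lower in VF (edgeR adjusted p = 0.0064, and 0.0733 with only these 2 groups in the fit). In VFDM it was at least 22.1-fold lower (adjusted p = 0.00421, and 0.0106 without vehicle library 3, the highest). In the fit without the libraries low in rows with a count, VFDM kept its call (edgeR adjusted p = 2.08e-04). VF was left with COMBO library 4 alone in that fit. Whether low detection added to the counts of 0 was not tested.

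With a single drug, Ndn libraries were widely spread. VF interferon libraries were at 0.147, 1.14, 1.26 and 0.147 CPM, and VF 5-azacytidine libraries at 0.988, 0.044, 0 and 1.15 CPM. VFDM interferon libraries were at 0.758, 1.94, 0.387 and 2.04 CPM, and VFDM 5-azacytidine libraries at 3.38, 1.74, 6.87 and 0 CPM. Library 3 of the last group lay above every VFDM vehicle library, and 1 library of each 5-azacytidine group had no count, as with the combination. Those 2, VF AZA library 3 and VFDM AZA library 4, were low in rows with a count, at 17942 and 19570. VF AZA library 2, where Ndn had 1 count, was at 18993. VFDM AZA library 3, the highest for Ndn, was low as well, at 18843. None of the 4 single-drug comparisons with vehicle passed the test. Fewer cells of a type and less RNA per cell cannot be told apart in bulk samples such as these.

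Of the other genes of the Snrpn domain, Ube3a, the ubiquitin ligase gene lost in Angelman syndrome and imprinted in neurons, was the most abundant (chromosome 7, 59228750 to 59311536, plus strand). VF vehicle libraries were at 132, 211, 242 and 139 CPM, and VF COMBO libraries at 248, 270, 257 and 222 CPM. Vehicle libraries 1 and 4 stood apart below the rest, and vehicle library 3 lay inside the COMBO range. Ube3a rose by the test (log2 fold change 0.46 ± 0.14, edgeR adjusted p = 0.0337), but without vehicle libraries 1 and 4 the change was 0.16 with an adjusted p of 0.595. The call was also lost without vehicle library 1 alone (adjusted p = 0.107), vehicle library 4 alone (0.124) or COMBO library 2 (0.0528). In VFDM it was at 210, 258, 259 and 243 CPM with vehicle and 199, 206 and 186 CPM with the combination, below every vehicle library without passing the test. The difference between the 2 responses passed (-0.76 ± 0.20, adjusted p = 0.0283), and was -0.42 with an adjusted p of 0.218 without VF vehicle libraries 1 and 4, and -0.61 (0.262) without the libraries under 20000 rows. It was lost without any 1 of VF vehicle libraries 1 and 4, VFDM vehicle libraries 2, 3 and 4 and VFDM COMBO libraries 2 and 4, with adjusted p between 0.051 and 0.0795.

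With interferon Ube3a was at 229, 216, 228 and 230 CPM in VF and at 245, 223, 248 and 250 CPM in VFDM. With 5-azacytidine it was at 239, 251, 266 and 240 CPM in VF and at 214, 238, 191 and 262 CPM in VFDM. Outside VF vehicle libraries 1 and 4, all libraries lay between 186 and 270 CPM. Mkrn3, which encodes a RING finger protein, ranged from 0 to 5.81 CPM and Snrpn, which encodes the spliceosomal protein SmN, from 0 to 0.791 CPM, and neither passed in any comparison.

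The noncoding RNA of the Cdkn1c domain rose in VF with 5-azacytidine and with the combination, and passed with no treatment in VFDM. Kcnq1ot1 (chromosome 7, 143203458 to 143296549, minus strand, promoter shown above) was at 783, 633, 889 and 386 CPM in VF vehicle libraries, and at 975, 1290, 1330 and 1060 CPM with 5-azacytidine, all 4 of which were above all vehicle libraries (log2 fold change 0.79 ± 0.19, edgeR adjusted p = 0.0241). With the combination it was at 768, 1390, 1200 and 884 CPM in VF, overlapping the vehicle range (log2 fold change 0.66 ± 0.19, adjusted p = 0.0245). VF interferon libraries were at 1140, 873, 906 and 859 CPM and did not pass (log2 fold change 0.49, adjusted p = 0.194). Vehicle library 4 was the lowest of all 31 libraries, and without it the 5-azacytidine change was 0.61 (adjusted p = 0.155) and the combination change 0.49 (adjusted p = 0.116). Leaving out vehicle library 2, AZA library 2 or AZA library 3 also ended the 5-azacytidine call (adjusted p = 0.0604, 0.0917 and 0.1), and leaving out vehicle library 2 or COMBO library 2 or 3 ended the combination call (0.0523, 0.0839 and 0.0593).

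In VFDM, Kcnq1ot1 was at 1090, 1190, 984 and 942 CPM with vehicle, 1130, 979, 702 and 994 CPM with interferon, 1110, 1120, 1430 and 1360 CPM with 5-azacytidine and 1060, 1110 and 1090 CPM with the combination. VFDM vehicle libraries lay above all VF vehicle libraries, without passing the test (log2 fold change 0.64 ± 0.19, edgeR adjusted p = 0.0912). That difference passed with DESeq2 (0.67, adjusted p = 0.0422), without the libraries under 20000 rows (0.67, 0.0423) and without VF vehicle library 3 (0.81, 0.0146). Phlda2, a growth-restraining gene of the same domain, ranged from 0 to 3.78 CPM and passed in no comparison.

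The Igf2r domain on chromosome 17 holds Igf2r, the receptor that clears IGF2 and sorts lysosomal enzymes, the antisense RNA Airn that silences it in part, and the transporter gene Slc22a3. In VF, Igf2r (12682406 to 12769664, minus strand) was at 43.6, 40.8, 40.9 and 41.5 CPM with vehicle and at 27.7, 14.8, 19.3 and 12.4 CPM with the combination. All COMBO libraries lay below the narrow vehicle range, and Igf2r fell 2.25-fold (log2 fold change -1.17 ± 0.36, edgeR adjusted p = 0.0414). The call was lost without any 1 of vehicle libraries 1, 2, 3 and 4 (adjusted p = 0.0902, 0.0624, 0.052 and 0.0921) or of COMBO libraries 2, 3 and 4 (0.121, 0.0967 and 0.0953), with changes between -0.95 and -1.18.

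With single drugs the VF libraries of Igf2r were widely spread. Interferon libraries were at 17.4, 22.4, 37.9 and 11.9 CPM (log2 fold change -0.90, adjusted p = 0.241), below all vehicle libraries, and 5-azacytidine libraries at 42.8, 35.3, 12.7 and 14.2 CPM. In VFDM, Igf2r was at 59.2, 40.5, 55.5 and 41.6 CPM with vehicle, 55.8, 16.9, 25.2 and 22.7 CPM with interferon, 30.5, 26.1, 45.7 and 32.4 CPM with 5-azacytidine and 28.7, 22.6 and 40.2 CPM with the combination. The last was below every vehicle library without passing the test (log2 fold change -0.69, adjusted p = 0.252). Airn ranged from 0 to 6.88 CPM and passed in no comparison.

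Slc22a3 (12418960 to 12507704, minus strand) was the only member that passed as higher with the combination in both genotypes. VFDM vehicle libraries were at 53.6, 64.6, 59.5 and 79.7 CPM and VFDM COMBO libraries at 231, 199 and 204 CPM. The groups were far apart, and the rise was 3.29-fold (log2 fold change 1.72 ± 0.38, edgeR adjusted p = 0.0022). VF vehicle libraries were at 75.5, 94.7, 50.2 and 125 CPM and VF COMBO libraries at 71.7, 261, 260 and 166 CPM, with COMBO library 1 inside the vehicle range (log2 fold change 1.14 ± 0.36, adjusted p = 0.0471). The VF call was lost without any 1 of vehicle libraries 1, 2 and 3 (adjusted p = 0.102, 0.0653 and 0.111) or of COMBO libraries 2 and 3 (0.111 and 0.122), with changes between 0.95 and 1.22.

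Slc22a3 was also higher than vehicle in most single-drug libraries of VFDM, without passing the test. Interferon libraries were at 65.1, 175, 146 and 139 CPM (log2 fold change 1.03, edgeR adjusted p = 0.328) and 5-azacytidine libraries at 75.9, 109, 124 and 162 CPM (0.87, adjusted p = 0.38). VF interferon libraries were at 158, 151, 112 and 132 CPM and VF 5-azacytidine libraries at 36, 117, 90.7 and 89.9 CPM.

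The Peg10 domain on chromosome 6 held the member with the smallest p. Ppp1r9a encodes neurabin, an actin-binding scaffold of protein phosphatase 1, and is known as a maternally expressed gene in some embryonic tissues (4902917 to 5165661, plus strand). It was at 197, 223, 206 and 191 CPM in VFDM vehicle libraries and at 59.1, 24.3 and 57 CPM in VFDM COMBO libraries. Every COMBO library lay below every vehicle library, and Ppp1r9a fell 4.35-fold (log2 fold change -2.12 ± 0.22, edgeR adjusted p = 2.73e-08). In VF it was at 187, 157, 192 and 130 CPM with vehicle and at 97.1, 70.6, 106 and 101 CPM with the combination, again without overlap, a fall of 1.78-fold (log2 fold change -0.83 ± 0.19, adjusted p = 0.00604). Without the libraries that had fewer than 20000 rows with a count, which leaves 1 VF COMBO library, that change was -0.71 (adjusted p = 0.175).

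In the main fit, the fall of Ppp1r9a was larger with Dnmt3a deletion. The difference of the 2 log2 fold changes was -1.29 ± 0.28 (edgeR adjusted p = 0.00674), and the level in VFDM COMBO was 2-fold lower than in VF COMBO (SE of the log2 fold change 0.21, adjusted p = 0.00397). With only the compared groups in the fit, neither passed. The edgeR adjusted p was then 0.0598 for the difference and 0.381 for the levels, where 0 of all rows passed. The comparison of levels was lost without VFDM COMBO library 3 (log2 fold change -0.65, adjusted p = 0.0715), which had the lowest value, and without all libraries under 20000 rows (-0.75, 0.0665). With a single drug, VFDM libraries were at 190, 123, 125 and 145 CPM for interferon (log2 fold change -0.49, adjusted p = 0.484) and 161, 153, 114 and 166 CPM for 5-azacytidine (-0.46, adjusted p = 0.385). Both sets lay below all vehicle libraries, and neither passed the test in the main fit. The interferon change passed with only its 2 groups in the fit (-0.49, edgeR adjusted p = 0.0441). VF libraries were at 143, 116, 143 and 141 CPM with interferon and 170, 185, 225 and 166 CPM with 5-azacytidine, both overlapping vehicle.

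Sgce encodes epsilon-sarcoglycan, a membrane protein of the dystrophin complex, transcribed away from Peg10 on the paternal allele (4674350 to 4747207, minus strand). In VFDM it was at 23.3, 19.8, 18.7 and 21.1 CPM with vehicle and at 6.34, 1.67 and 2.2 CPM with the combination, a fall of 6.04-fold with no overlap (log2 fold change -2.59 ± 0.60, edgeR adjusted p = 0.00241). Without COMBO library 2, the highest, it was 10.3-fold (-3.37, adjusted p = 0.00119). In VF it was at 23, 15, 20.6 and 13.3 CPM with vehicle and at 17.4, 6.8, 1.25 and 14.4 CPM with the combination, where 2 libraries were low and 2 lay in the vehicle range (log2 fold change -0.85, adjusted p = 0.302). Interferon libraries were at 19.7, 17, 18.5 and 16.1 CPM in VF and 19.7, 12, 15.3 and 18.1 CPM in VFDM. 5-Azacytidine libraries were at 22.1, 13.9, 5.26 and 21.8 CPM in VF and 17.6, 18, 3.43 and 16.2 CPM in VFDM, with library 3 lowest in each.

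Asb4, an ankyrin repeat and SOCS box gene, was at 0.504, 2.01, 1.05 and 1.05 CPM in VFDM vehicle libraries and had no count in the 3 VFDM COMBO libraries. Against the floor of 3 counts per library it was at least 9.59-fold lower (edgeR adjusted p = 0.0301). The call was lost without any 1 of VFDM COMBO libraries 2, 3 and 4 (adjusted p = 0.0927, 0.0837 and 0.0989) or without vehicle library 2 (0.0524). In VF it was at 1.32, 0.647, 0.861 and 0.289 CPM with vehicle and 0, 0, 0 and 0.84 CPM with the combination. It was at 0, 0.466, 0.355 and 0.974 CPM with interferon and 1.26, 4.88, 0 and 1.59 CPM with 5-azacytidine in VF, and at 0.309, 0.144, 0.258 and 0 CPM and 0.585, 0.368, 0 and 0 CPM in VFDM. Peg10, the retrotransposon-derived gene that names the domain, ranged from 0 to 10 CPM and passed in no comparison.

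Peg13 and Grb10 fell with the combination in VFDM. Peg13, a paternally expressed noncoding RNA (chromosome 15, 72805600 to 72810324, minus strand), was at 86.4, 97.2, 89.3 and 79.7 CPM in VFDM vehicle libraries and at 55.6, 28.5 and 46.9 CPM with the combination. The groups did not overlap, and the fall was 2.01-fold (log2 fold change -1.01 ± 0.20, edgeR adjusted p = 4.71e-04). VFDM 5-azacytidine libraries, at 73.9, 67.7, 51.3 and 44.8 CPM, also lay below all vehicle libraries without passing the test (-0.57, adjusted p = 0.169). VFDM interferon libraries were at 78.2, 86, 69 and 78.9 CPM.

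In VF, Peg13 was at 72.3, 93.6, 78.7 and 61.1 CPM with vehicle, 95.5, 74.9, 70.2 and 82.9 CPM with interferon, 55.7, 81.4, 98.2 and 76.4 CPM with 5-azacytidine and 64.2, 72.6, 65.1 and 72.1 CPM with the combination, all overlapping. The level with the combination was lower in VFDM than in VF in every library, just short of the threshold (log2 fold change -0.65, edgeR adjusted p = 0.0512), as was the difference of the responses (-0.85, adjusted p = 0.068). DESeq2 called both (adjusted p = 0.0272 and 0.0286). Trappc9, the host gene, encodes a subunit of a vesicle tethering complex. It ranged from 36.4 to 79.7 CPM and passed in no comparison, with a log2 fold change of -0.21 ± 0.20 in VFDM COMBO.

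Grb10 (chromosome 11, 11930508 to 12038683, minus strand) was at 98.8, 131, 130 and 144 CPM in VFDM vehicle libraries and at 66, 91.3 and 73.4 CPM with the combination. The groups did not overlap, and the fall was 1.64-fold (log2 fold change -0.71 ± 0.20, edgeR adjusted p = 0.0136). It was lost without VFDM COMBO library 2 (adjusted p = 0.102), COMBO library 4 (0.0785) or vehicle library 4 (0.0636). VFDM interferon libraries were at 153, 121, 95.8 and 139 CPM and 5-azacytidine libraries at 159, 105, 98.1 and 108 CPM. In VF it was at 64.4, 101, 94 and 113 CPM with vehicle, 111, 97.5, 119 and 88.8 CPM with interferon, 125, 94.7, 82.9 and 74.3 CPM with 5-azacytidine and 104, 128, 102 and 91.9 CPM with the combination. The difference of the combination responses did not pass (-0.90 ± 0.27, adjusted p = 0.0545), while DESeq2 gave an adjusted p of 0.0259.

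Inpp5f encodes the inositol phosphatase SAC2 (chromosome 7, 128611328 to 128696425, plus strand). In VFDM it was at 23.6, 25.3, 21.4 and 27.8 CPM with vehicle and at 14.1, 2.94 and 13.1 CPM with the combination, without overlap (log2 fold change -1.28 ± 0.34, edgeR adjusted p = 0.00922). COMBO library 3 was far below the others, and without it the change was -0.82 with an adjusted p of 0.0841. In VF it was at 11.8, 14.9, 16.5 and 10.5 CPM with vehicle and at 17.3, 23.4, 21.6 and 19.1 CPM with the combination, above every vehicle library without passing the test (0.59, adjusted p = 0.233). The difference of the responses passed (-1.87 ± 0.46, edgeR adjusted p = 0.016). Without VF vehicle libraries 1 and 4 it was -1.64 (adjusted p = 0.125), and with only the compared groups in the fit -1.86 (0.0881). The VFDM change alone was -1.27 (0.0718) with only its 2 groups. All VFDM vehicle libraries lay above all VF vehicle libraries, which enters this difference. That vehicle comparison did not pass in the main fit, but did without the libraries under 20000 rows (0.89, adjusted p = 0.0149). Interferon libraries were at 20.3, 17.8, 17 and 18.4 CPM in VF and 21.2, 17.2, 14 and 22.9 CPM in VFDM, and 5-azacytidine libraries at 14.4, 22.7, 28.5 and 20.2 CPM and 13, 20.9, 28 and 25.6 CPM.

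Over all tested members, the difference between the combination responses of the 2 genotypes passed for 3, Ube3a, Ppp1r9a and Inpp5f. Each had the more negative response in VFDM. Of all rows, 3.74% passed, and DESeq2 called 5 members and 1833 rows. The responses to interferon differed between genotypes for 0 members (0% of rows). At an unadjusted edgeR p under 0.05 were 1 member and 1149 rows, and DESeq2 called 0 members and 27 rows. The responses to 5-azacytidine also differed for 0 members (0.582% of rows). At an unadjusted edgeR p under 0.05 were 4 members and 2307 rows, and DESeq2 called 0 members and 382 rows.

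**Figure D3:**
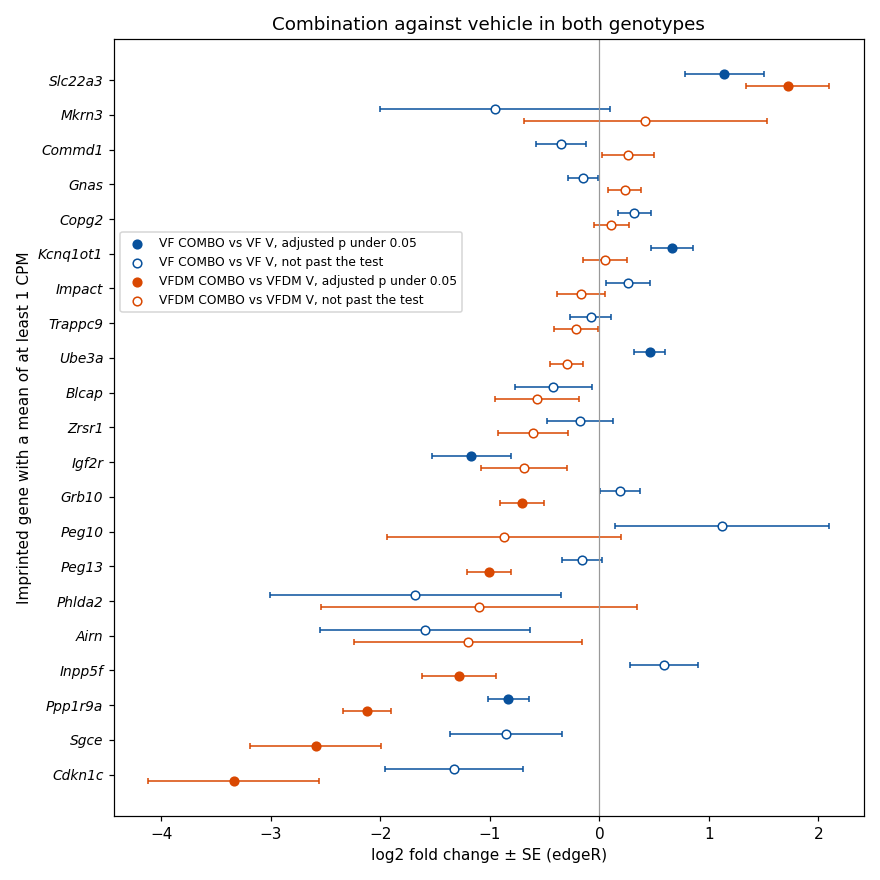
Log2 fold change (edgeR) of the combination against vehicle for the imprinted genes with a mean of at least 1 CPM and a finite fold (Ndn, at 0 in both COMBO groups, is left out), in VF (blue) and VFDM (orange). Bars are ± 1 SE and filled points have an adjusted p under 0.05; Slc22a3 lies to the right in both genotypes, and Cdkn1c, Sgce and Ppp1r9a lie furthest to the left in VFDM.

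Several abundant members passed in no comparison. Gnas was at 315, 311, 291 and 421 CPM in VF vehicle libraries, 269, 329, 325 and 298 CPM with interferon, 321, 237, 330 and 300 CPM with 5-azacytidine and 281, 236, 315 and 376 CPM with the combination. In VFDM the same groups were at 274, 287, 291 and 265 CPM, 325, 336, 348 and 270 CPM, 327, 321, 252 and 246 CPM, and 295, 376 and 312 CPM. The VFDM COMBO libraries lay above all VFDM vehicle libraries, without passing the test (log2 fold change 0.23 ± 0.15, edgeR adjusted p = 0.332).

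Copg2, which encodes a coatomer subunit of Golgi vesicles, was at 36, 53.9, 52.6 and 44.2 CPM in VF vehicle libraries and at 73.7, 61.6, 56.5 and 61.2 CPM in VF interferon libraries, all 4 above vehicle (log2 fold change 0.44 ± 0.15, edgeR adjusted p = 0.144). It was at 53.9, 59.7, 58 and 57.9 CPM with 5-azacytidine and 47.6, 63.9, 70.9 and 50.2 CPM with the combination in VF. In VFDM it was at 58.6, 54.7, 65.4 and 54.6 CPM with vehicle, 57.1, 56.9, 57.6 and 62.8 CPM with interferon, 69.9, 57.2, 54.2 and 78.6 CPM with 5-azacytidine and 58.6, 58.4 and 72.3 CPM with the combination. None of these groups passed against its vehicle.

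Impact, which encodes a regulator of the amino acid sensor GCN2, was at 49.2, 38.2, 47.2 and 44.7 CPM in VF vehicle and 35.7, 71, 66.3 and 41.5 CPM in VF COMBO libraries, and at 52.3, 40.4, 55.9 and 49.5 CPM in VFDM vehicle and 46, 38.8 and 47.2 CPM in VFDM COMBO libraries. Its other libraries ranged from 34 to 65.1 CPM. Commd1, a copper metabolism and NF-kappaB regulator gene, was at 26.9, 32.9, 26.7 and 27.4 CPM in VF vehicle and 22, 18.5, 21.1 and 27.6 CPM in VF COMBO libraries, and at 20.6, 27.1, 22 and 29.1 CPM in VFDM vehicle and 28.5, 27.3 and 33.1 CPM in VFDM COMBO libraries. Zrsr1, a splicing factor retrocopy in an intron of Commd1, ranged from 9.8 to 39.7 CPM. Neither Impact, Commd1 nor Zrsr1 passed in any comparison.

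Blcap, a small membrane protein gene that surrounds Nnat, was at 22.2, 21.4, 23.4 and 37.4 CPM in VF vehicle and 30.8, 24.2, 7.87 and 15 CPM in VF COMBO libraries, and at 18.4, 21.2, 17.9 and 18.6 CPM in VFDM vehicle and 21.7, 6.27 and 10.3 CPM in VFDM COMBO libraries. The COMBO groups were widely spread, and no difference passed.

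Of the low members, Plagl1 was higher in VF COMBO and VF interferon libraries than in any VF vehicle library. This zinc finger transcription factor gene was at 0.115, 0.0647, 0.162 and 0.0579 CPM with vehicle (1 to 9 counts), 0.589, 0.304, 0.197 and 0.494 CPM with interferon and 5.68, 0.549, 6.72 and 1.35 CPM with the combination. Neither difference passed the test (edgeR adjusted p = 0.814 for interferon and 0.0902 for the combination). In VFDM COMBO it was at 1.07, 0 and 0 CPM. Other low members had single high libraries. H19 was at 4.45 CPM, or 142 counts, in VFDM COMBO library 4 and at 0 in the other 2 VFDM COMBO libraries and in all VF COMBO libraries. Its next highest level was 0.67 CPM, in VF 5-azacytidine library 4. Meg3 was at 2.12 CPM in VF vehicle library 1 and at no more than 0.0538 CPM in the other VF vehicle libraries. L3mbtl1, a chromatin-compacting protein gene, was highest in VF COMBO library 1 with 3.69 CPM, and Zdbf2 in VFDM COMBO library 4 with 1.91 CPM. Rasgrf1 did not exceed 0.69 CPM, Peg3 0.632 CPM, Mest 1.02 CPM and Nnat 0.52 CPM. None of these passed in any comparison.

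Among 30 genes of DNA methylation and imprint maintenance, of which 27 were tested, 8 changed with the combination in VFDM, 4 in each direction, where 16.0% of all rows passed (5.52% higher and 10.5% lower). Tet1, which oxidises methylcytosine, fell from 151, 137, 127 and 128 CPM to 48.3, 58.2 and 55.2 CPM (log2 fold change -1.33 ± 0.21, edgeR adjusted p = 2.5e-05), and Dnmt3a from 119, 120, 119 and 109 CPM to 51.6, 23 and 57 CPM (-1.41 ± 0.24, adjusted p = 5.09e-05). Mbd2, a reader of methylated DNA, rose (log2 fold change 0.95 ± 0.15, adjusted p = 3.13e-05). Dnmt1 was at 442, 516, 492 and 604 CPM with vehicle and at 590, 699 and 734 CPM with the combination, where 2 of 3 libraries lay above all vehicle libraries, and did not pass the test (edgeR adjusted p = 0.142).

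In VF, where 8.29% of all rows passed, the combination changed 6 of these 27 genes, 5 higher and 1 lower. Among them were Smchd1, a chromatin protein known for imprinted silencing (log2 fold change 0.50 ± 0.11, edgeR adjusted p = 0.0045), Mbd2 (0.53, adjusted p = 0.0189) and Ezh2 (0.52, adjusted p = 0.0208). Smchd1 also rose with interferon (0.40, adjusted p = 0.0418) and with 5-azacytidine (0.52, adjusted p = 0.0104) in VF, and no gene of the list passed with a single drug in VFDM. Dnmt3a was lower in VFDM than in VF with vehicle (119, 120, 119 and 109 CPM against 297, 162, 187 and 288 CPM, adjusted p = 0.0113).

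Another 40 imprinted genes, of which 27 were tested, also changed with the combination and in both directions. In VF 5 rose and 4 fell, where 8.29% of all rows passed, and in VFDM 4 rose and 5 fell, where 16.0% did. Osbpl5, an oxysterol-binding protein gene of the Kcnq1ot1 domain, fell in both (20.8, 10.6, 14.3 and 20.5 CPM with vehicle and 3.39, 4.52, 2.11 and 4.56 CPM with the combination in VF, log2 fold change -2.18 ± 0.47, edgeR adjusted p = 0.00325; 17.1, 13.6, 11.5 and 8.74 CPM and 0.631, 2.3 and 0.471 CPM in VFDM, -3.53 ± 0.57, adjusted p = 2.99e-05). Pde10a, a phosphodiesterase gene, rose with interferon in VF (log2 fold change 3.79 ± 0.74, adjusted p = 0.00312) and VFDM (3.10 ± 0.71, adjusted p = 0.0249). No gene of this list passed with 5-azacytidine in either genotype.

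The cell type markers also moved with the combination in VFDM, where 9 of the 36 tested imprinted genes passed. Of 14 LT-HSC markers, 9 were called lower and none higher there, and their summed level was 1170 to 1560 CPM against 2390 to 2620 CPM with vehicle. Much of the COMBO sum came from Kit (677, 585 and 515 CPM) and Gata2 (623, 394 and 380 CPM). Procr, which encodes the LT-HSC surface receptor EPCR, was at 0.0315, 0.0575 and 0.439 CPM against 34 to 40.4 CPM with vehicle, and Fgd5 was at 0.883, 6.73 and 0.816 CPM against 66.1 to 94.2 CPM. Fgd5 and Hoxb5 had no count in VF COMBO library 3, nor had Hoxb5 in VFDM COMBO library 3. Of 11 erythroid markers, 10 were called higher, with sums of 2130, 16800 and 3760 CPM in libraries 2, 3 and 4 against 487 to 501 CPM. The sum of 10 neutrophil markers was 646 to 1610 CPM against 34.1 to 98.4 CPM, with 5 called higher. The sum of 4 multipotent progenitor markers was 41.7 to 66.2 CPM against 210 to 361 CPM. Of these, Cd27, Cd34 and Flt3 were called lower. Cd48, which the sort gate excludes, was called higher, at 16.8, 14.1 and 22.8 CPM against 7.43, 7.6, 5.14 and 4.53 CPM. Of the genes for markers that the gate requires, Slamf1 (CD150) was at 87.6, 94.7 and 95.4 CPM against 59.3 to 93.3 CPM. Ly6a (Sca1) was at 15.5, 18 and 11.6 CPM against 12.1 to 15.3 CPM. Kit, given above, lay below its vehicle range of 684 to 805 CPM. None of these genes was called. Cd48 was also called higher in VF COMBO, where Flt3 and Cd27 were called lower. Stromal markers summed to 51 to 72.2 CPM against 14.4 to 25.3 CPM, with Lum at 0 in every group and 1 of 7 tested called higher (Cxcl12). In VF COMBO the LT-HSC sum was 1520 to 2000 CPM against 1800 to 1900 CPM with vehicle, with 2 markers called higher and 3 lower, and the erythroid sum 427 to 1100 CPM against 239 to 486 CPM, with 4 called higher. VF COMBO library 1 stood apart in markers of T and natural killer cells, whose sum was 140 CPM there against 20.9 to 28.7 CPM in the other VF COMBO libraries and 10.6 to 18 CPM with vehicle. Its Cd3g was at 43 CPM and Cd4 at 40.3 CPM, and 3 of these markers (Cd4, Cd3g and Trbc2) were called higher in VF COMBO. Without this library the same 6 members passed in VF COMBO. The part of these shifts in the changes of imprinted genes was not tested.

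**Figure D4:**
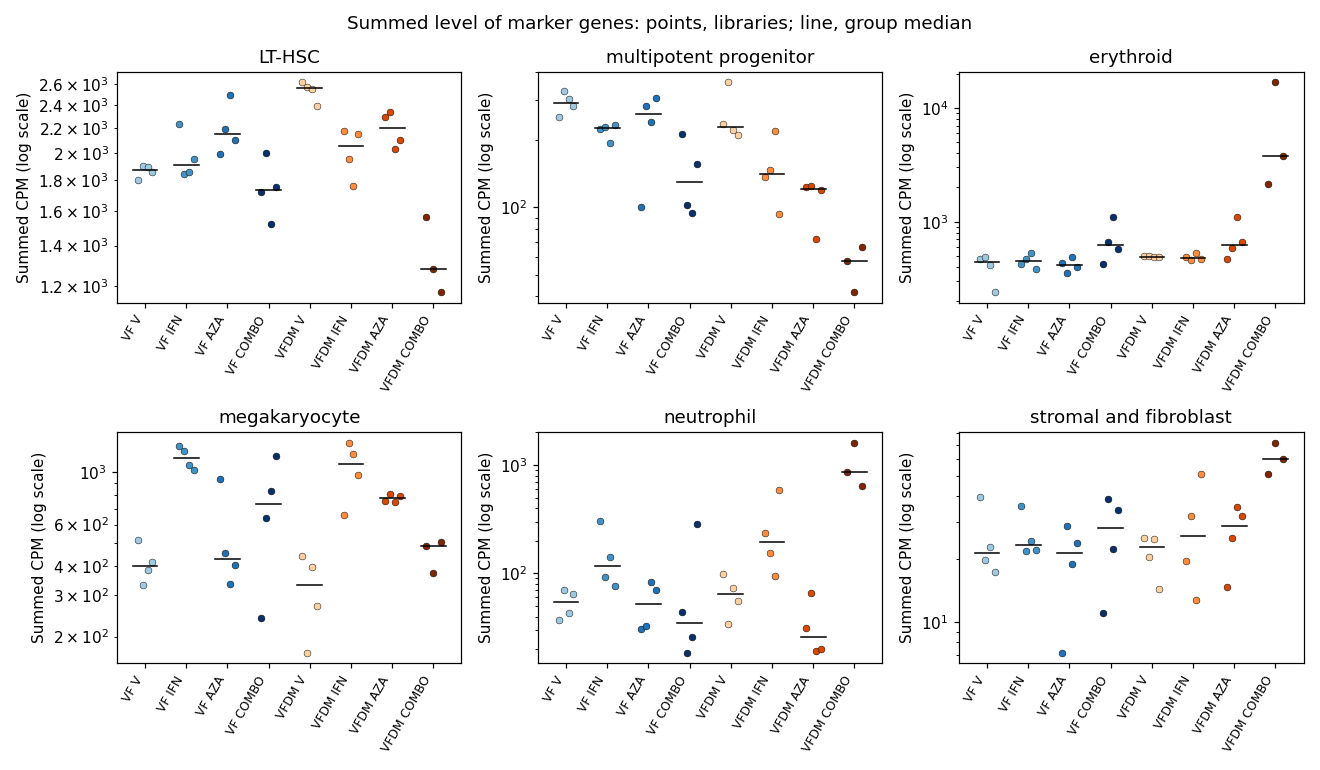
Summed CPM (log scale) of marker genes for 6 cell classes in each library, by group; lines are group medians. In VFDM COMBO the LT-HSC and multipotent progenitor sums are the lowest and the erythroid and neutrophil sums the highest of the 8 groups.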

How the data were processed

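The deposited table holds raw counts of reads per gene, made by the authors, for 31 libraries and 55492 rows. Per the submitters' processing notes, reads were checked with FastQC 0.11.5, aligned to mm10 with STAR 2.7.10a and counted with featureCounts, with R 4.3.0 also named. Per the labels, RNA was extracted with PicoPure and libraries were made with the Takara SMART-Seq Stranded kit. Which annotation and strand option were used, and how multimapping reads were treated, none of the sources used here states. Overlapping, antisense and near-identical genes are therefore uncertain. Positions and overlaps come from GENCODE vM21, and promoters from RefSeq (GRCm38.p6).

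Counts were fitted in R 4.3.3 with edgeR 4.0.16 (TMM, filterByExpr with at least 10 counts in enough libraries and 15 in total, 22172 rows kept, robust quasi-likelihood, 1 mean per group over all libraries). Tests were two-sided with Benjamini-Hochberg adjustment over all rows and a threshold of 0.05. The 14 comparisons were 6 drug effects, 4 genotype effects, their average and 3 interaction terms. The SE is the log2 fold change divided by the square root of F. CPM are per TMM-scaled library, and SDs are over libraries. Folds against groups with no count use a floor of 3 counts per library. The model was tested on simulated data.

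Members described library by library passed in at least 1 comparison or led their domain, the most abundant of them in full and the others in part. From the other lists, genes that passed are named, at most 3 per list and comparison by smallest p. The members and lists were chosen with earlier results of these data known. Alternatives were RLE factors, no filter, DESeq2 1.42.0, a replicate block, only the compared groups, no libraries under 20000 detected rows, and each library left out. Leaving out VF vehicle libraries 1 and 4 together and fitting protein-coding rows and members only were chosen after seeing the data. Replicate libraries differed by more than sampling noise (lowest chi-square over its degrees of freedom 19.6 in 45 pairs).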

Additional observations from a re-analysis of the deposited data

Results flagged for a closer look

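In 3 members the response to the combination differed between genotypes by the interaction term of the edgeR fit. The difference, VFDM minus VF, was -0.76 for Ube3a (adjusted p = 0.0283), -1.29 for Ppp1r9a (adjusted p = 0.00674) and -1.87 for Inpp5f (adjusted p = 0.016) on the log2 scale. Without VF vehicle libraries 1 and 4, both Ube3a (-0.42, edgeR adjusted p = 0.218) and Inpp5f (-1.64, 0.125) lost their calls, as given above. With only the 4 compared groups in the edgeR fit, the adjusted p was 0.0598 for Ppp1r9a, 0.0881 for Inpp5f and 0.15 for Ube3a.

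In 7 of 84 groups of 4 libraries, over the 12 members that passed in some comparison, 1 library stood far from the other 3. Chance gives about 1 in 20 such groups. These were Asb4 in VF COMBO library 4 with 0.84 CPM, Grb10 in VFDM AZA library 1 with 159 CPM, Kcnq1ot1 in VF IFN library 1 with 1140 CPM and Ndn in VFDM vehicle library 3 with 5.34 CPM. The others were Ppp1r9a in VF IFN library 2 with 116 CPM, Sgce in VFDM AZA library 3 with 3.43 CPM and Ube3a in VF IFN library 2 with 216 CPM. Their causes were not tested.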

How the results depend on the processing

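Counts of members called are given as main value and alternative. With DESeq2 they went from 1 to 2 for VF AZA, 0 to 1 for VFDM against VF with vehicle and with AZA, 1 to 4 for VFDM against VF with COMBO, and 3 to 5 for the COMBO interaction. With only the compared groups they went from 0 to 1 for VF IFN and VFDM IFN, 1 to 0 for VF AZA, 6 to 0 for VF COMBO, 1 to 0 for VFDM against VF with COMBO and 3 to 0 for the interaction. Without libraries under 20000 detected rows they went from 0 to 1 for VF IFN, 1 to 0 for VF AZA, 6 to 0 for VF COMBO, 0 to 2 for the vehicle genotypes and 1 to 3 for the COMBO genotypes. Without VF vehicle libraries 1 and 4 they went to 0 for VF AZA, 2 for VF COMBO and 1 for the interaction, and with protein-coding rows and members only to 0 for VF AZA. All rows called were then 113, 358 and 328, and 37 for VF AZA with protein-coding rows and members only. Under the other settings calls among all rows moved too. With DESeq2 they went from 265 to 824, 212 to 629, 164 to 441, 1132 to 2085 and 830 to 1833, in the order given. With only the compared groups they went from 214 to 1092 for VFDM IFN and 265 to 0 for VF AZA. There the COMBO genotypes went from 1132 to 0 and the interaction from 830 to 298. Without libraries under 20000 detected rows VF IFN went from 538 to 1522 and VF AZA from 265 to 3. The cause was not tested.

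Leaving out 1 library at a time gave 0 to 2 members for VF IFN, VF AZA and the vehicle genotypes, 2 to 7 for VF COMBO, 7 to 9 for VFDM COMBO, 0 to 3 for the COMBO genotypes, 0 to 1 for the AZA interaction and 2 to 4 for the COMBO interaction. The first 3 reached 2 without VF vehicle library 3. There 1040, 942 and 815 of all rows passed, against 538, 265 and 212 in the main fit. The AZA interaction reached 1 there, with 269 of all rows against 129. In VFDM COMBO, Cdkn1c, Peg13, Sgce, Ndn, Ppp1r9a and Slc22a3 kept their calls under each of these. Slc22a3 in VFDM against VF with COMBO, 0.16 and not called, became -0.10 without VF COMBO replicate 1 (adjusted p = 0.935) and ranged up to 0.37 without another library. Same-numbered libraries deviated together (r over 0.1) in 6 of 105 pairs and differently numbered ones in 10 of 315, with a mean of 0.00 in both. Of 31 libraries, 10 correlated best with their own number. Few pairs of either kind passed r 0.1, so this check does not settle whether numbers pair libraries. With the replicate block, VFDM COMBO had 9 members called, VF COMBO 6 and the interaction 3, as without it, while calls among all rows for VFDM against VF with COMBO went from 1132 to 735. Among all rows, calls for VF COMBO were 1838, against 2972 with DESeq2 and 117 with only the compared groups, and for VFDM COMBO 3551 against 6062 without libraries under 20000 detected rows. The median of all rows in VF COMBO was -0.11, and -0.03 with protein-coding rows and members only. The 22 members under 1 CPM lay nearest the counting limit. The number of rows with a count did not follow depth alone. VF AZA library 3 had 31544083 counts and 17942 such rows, and VF vehicle library 1 had 18804444 counts and 22988.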
